A study of Mus musculus with 12 samples.

Results

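The liver carboxylesterases are 10 genes of 55421 in the count table, picked by symbol: Ces1c, Ces1d, Ces1e, Ces1f and Ces1g of the Ces1 cluster, Ces2a, Ces2c and Ces2e of the Ces2 cluster, and Ces3a and Ces3b of the Ces3 cluster. They were picked with the mutant-against-control differences of these same libraries already known, so those differences are given here as a description and carry no test. All 10 passed the filter on low counts.

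Whole liver of 12 adult male C57BL/6 mice was sequenced, with 3 mice in each of 4 groups: Fra1hep mutants, Fra1hep controls, Fra2hep mutants and Fra2hep controls. Mutants of both strains carry a transgene that is switched on when doxycycline is removed, which was done at weaning, at 3 weeks of age. Controls were littermates from the same cage that went through the same doxycycline removal. Livers were taken 2 months after induction according to the titles and the design text, whereas the treatment label of the Fra2hep mutants says 9 months, so that an effect of age on this group cannot be told apart from that of the transgene. The labels name neither the promoter that drives the transgene nor the alleles that the controls carry. Fra-1 (gene Fosl1) and Fra-2 (gene Fosl2) are Fos-family proteins that pair with Jun proteins to form the transcription factor AP-1.

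Carboxylesterases are serine hydrolases that cleave esters, amides and thioesters, and in hepatocytes most of them sit in the lumen of the endoplasmic reticulum. They break down ester drugs and toxins, and several also hydrolyse stored triacylglycerol or cholesteryl ester and so feed lipid to very-low-density lipoprotein (VLDL). In the mouse the genes arose by repeated duplication and stand in rows on chromosome 8. A signal at the very end of the protein holds most of them in the endoplasmic reticulum, and the mouse Ces1c protein, the plasma esterase, is secreted into blood.

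The ends of the coding sequences, which encode that signal, are shown because they set Ces1c apart from its neighbours. Each run holds the last 24 bases of the coding sequence in the GENCODE annotation of GRCm38, read 5′ to 3′ on the gene's strand, with the last 4 codons before the stop codon in capitals.
Ces1c, chr8:93099165-93099188, minus strand: actgaacacACAGAACACAAAtga
Ces1d, chr8:93166255-93166278, minus strand: cacagggaaCATGTTGAGCTCtga
Ces1e, chr8:93201404-93201427, minus strand: ccgacagaaCACACTGAGCTGtga
Ces1f, chr8:93256429-93256452, minus strand: cagccatacCACAATGAGCTGtga
Ces1g, chr8:93302905-93302928, minus strand: catagggaaCATGTTGAACTGtga
Ces2a, chr8:104741393-104741416, plus strand: caggacaagCATGCAGAGCTGtag
Ces2c, chr8:104854241-104854264, plus strand: caggacaagCACAGGGAGCTTtag
Ces2e, chr8:104933691-104933714, plus strand: caggagaggCACAAAGAGTTGtag
Ces3a, chr8:105058080-105058103, plus strand: aggaaagttCCAGAGGAGCTCtga
Ces3b, chr8:105093239-105093262, plus strand: aggaaagttCCAGAGGAGCTCtga
In 9 of the 10 genes the third codon in capitals is GAG or GAA and the fourth is CTC, CTG, CTT or TTG, whereas Ces1c has CAC and AAA there. The first of the 4 is CAT or CAC in 7 genes, CCA in Ces3a and Ces3b, and ACA in Ces1c. Ces3a and Ces3b end in the same 24 bases.

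The 5 Ces1 genes lie on the minus strand between positions 93099015 and 93337308 of chromosome 8 (GRCm38), and the Ces2 and Ces3 genes on the plus strand between 104734003 and 105093929. All 10 are annotated as protein-coding. Their coding sequences share 71.6% to 81.6% of aligned bases within the Ces1 cluster and 82.2% to 83.5% within the Ces2 cluster. Ces3a and Ces3b share 95.3%. Between clusters the identity was 52.8% to 57.8%. Stretches of 50 bases that also occur in another annotated transcript made up 36.1% of Ces2c (mostly shared with the pseudogene Ces2d-ps), 26.2% of Ces3b and 25.6% of Ces3a (shared with each other), 17.3% of Ces2a (mostly Gm7208) and 13% of Ces1c (mostly Ces1b). In the other 5 genes the share was 0.903% to 3.3%. The sources used here do not say how reads with several matching genes were counted, so the split of counts within such pairs is uncertain. Each cluster is therefore also given as a sum over its members among the 10. Such a sum is not moved by a split between members, as for Ces3a and Ces3b. A split with Ces1b, Ces2d-ps or Gm7208, which are in no sum, can still move it.

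Promoters are shown for the 3 genes that passed the threshold in a strain and for Ces2c. RefSeq sequences of 250 bases before to 50 bases after the transcription start (GRCm38.p6) were matched for 7 of the 10 genes, Ces1d, Ces1f and Ces3a being without one. They were searched on both strands for the AP-1 site TGANTCA, the cyclic AMP response element TGACGTCA, the antioxidant response element TGACNNNGC and the TATA box TATAAA, and any match is in capitals.
Ces1c, chr8:93131234-93131533, minus strand: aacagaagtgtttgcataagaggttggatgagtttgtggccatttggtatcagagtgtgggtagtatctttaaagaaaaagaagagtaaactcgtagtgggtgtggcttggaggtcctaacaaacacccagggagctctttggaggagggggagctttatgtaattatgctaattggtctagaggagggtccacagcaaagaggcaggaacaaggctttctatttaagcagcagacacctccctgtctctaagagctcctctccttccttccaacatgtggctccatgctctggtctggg
Ces1e, chr8:93229570-93229869, minus strand: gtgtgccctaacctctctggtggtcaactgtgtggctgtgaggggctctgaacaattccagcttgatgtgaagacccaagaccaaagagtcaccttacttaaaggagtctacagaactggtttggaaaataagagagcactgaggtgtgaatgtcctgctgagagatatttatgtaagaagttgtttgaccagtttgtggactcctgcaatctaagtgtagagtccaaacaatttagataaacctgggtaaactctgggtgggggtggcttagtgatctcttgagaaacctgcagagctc
Ces1g, chr8:93337160-93337459, minus strand: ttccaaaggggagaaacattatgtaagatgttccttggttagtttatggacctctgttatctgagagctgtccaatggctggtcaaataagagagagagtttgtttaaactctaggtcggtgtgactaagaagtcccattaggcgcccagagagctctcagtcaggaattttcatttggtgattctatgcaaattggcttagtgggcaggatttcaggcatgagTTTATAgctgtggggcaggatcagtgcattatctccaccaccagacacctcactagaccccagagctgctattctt
Ces2c, chr8:104846818-104847117, plus strand: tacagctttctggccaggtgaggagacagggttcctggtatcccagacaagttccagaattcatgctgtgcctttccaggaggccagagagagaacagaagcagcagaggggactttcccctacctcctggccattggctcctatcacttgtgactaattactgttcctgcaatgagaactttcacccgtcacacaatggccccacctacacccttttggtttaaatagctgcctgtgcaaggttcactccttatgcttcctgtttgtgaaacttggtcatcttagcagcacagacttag
None of the 7 promoters held TGANTCA, TGACGTCA or TGACNNNGC, which stand in 7.81%, 1.79% and 12.4% of the 32851 RefSeq promoters of the same length. TATAAA was found 26 bases before the start in Ces1g (on the other strand, so that the run reads TTTATA) and 30 bases before the start in Ces3b, and in 13.6% of all promoters. The RefSeq start of Ces1g differs from the outer end of the gene in GENCODE. These are matches of letters in a short window only.

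Libraries held 16834041 to 20464807 counts, and levels are given as CPM, counts scaled to a common library total, after edgeR's trimmed mean of M-values (TMM) factors. Fosl1 averaged 10.8 ± 1.78 CPM in Fra1hep mutants and 0.0179 ± 0.031 CPM in Fra1hep controls, and Fosl2 averaged 413 ± 12.9 CPM in Fra2hep mutants and 25.4 ± 19.7 CPM in Fra2hep controls (SD, n = 3 each), so the labels of mutant and control hold. Fosl2 was uneven in the Fra2hep controls, at 12.2, 48 and 16 CPM. These lay above the Fra1hep controls, at 8.68, 8.64 and 10.1 CPM. Of 14076 genes tested with edgeR's quasi-likelihood test, 408 were higher and 132 lower in Fra1hep mutants (673 higher and 102 lower without a scaling factor), and 119 were higher and 31 lower in Fra2hep mutants, at a Benjamini-Hochberg adjusted p under 0.05. Without 1 library these counts ran from 215 (without Fra1hep control 1) to 429 higher and 52 (the same) to 153 lower in Fra1hep, and from 45 (without Fra2hep mutant 2) to 143 higher and 7 (without Fra2hep mutant 3) to 41 lower in Fra2hep, so the background shares below move as much. A gene past that threshold is said below to have risen, fallen or been called. The labelled tissue was checked on hepatocyte genes: albumin alone took 3.54% to 9.75% of the counts of each library.

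A library of the Fra1hep mutants stood apart from its group. Fra1hep mutant 2 had the lowest level of its group for 9 of the 10 carboxylesterases and the highest for Ces1c. Its Ces1f level was 6.68 CPM (127 counts), against 215 and 568 CPM in the other Fra1hep mutants, and its Ces1d level was 39.9 CPM, against 420 and 355 CPM. Its summed hepatocyte markers, 102000 CPM, were the highest of the Fra1hep mutants, and its cholangiocyte markers, 28.7 CPM, the lowest. The hepatocyte sum was mostly albumin (Alb, 79350 CPM). Alb, Apoa1, Ttr and Tat were highest of the group in this library. Cyp2e1 (1497 CPM, against 5550 and 3918 CPM) and Serpina1c (2624 CPM, against 2716 and 3543 CPM) were lowest. Results for Fra1hep mutants are therefore also given without Fra1hep mutant 2. Fra2hep control 1 differed from its group as well. It was the highest Fra2hep control for Ces1c, Ces1d, Ces1g, Ces3a and Ces3b, and the lowest for Ces1f, Ces2a, Ces2c and Ces2e. Fits without it enter only the ranges given for leaving out 1 library.

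**Figure D1:**
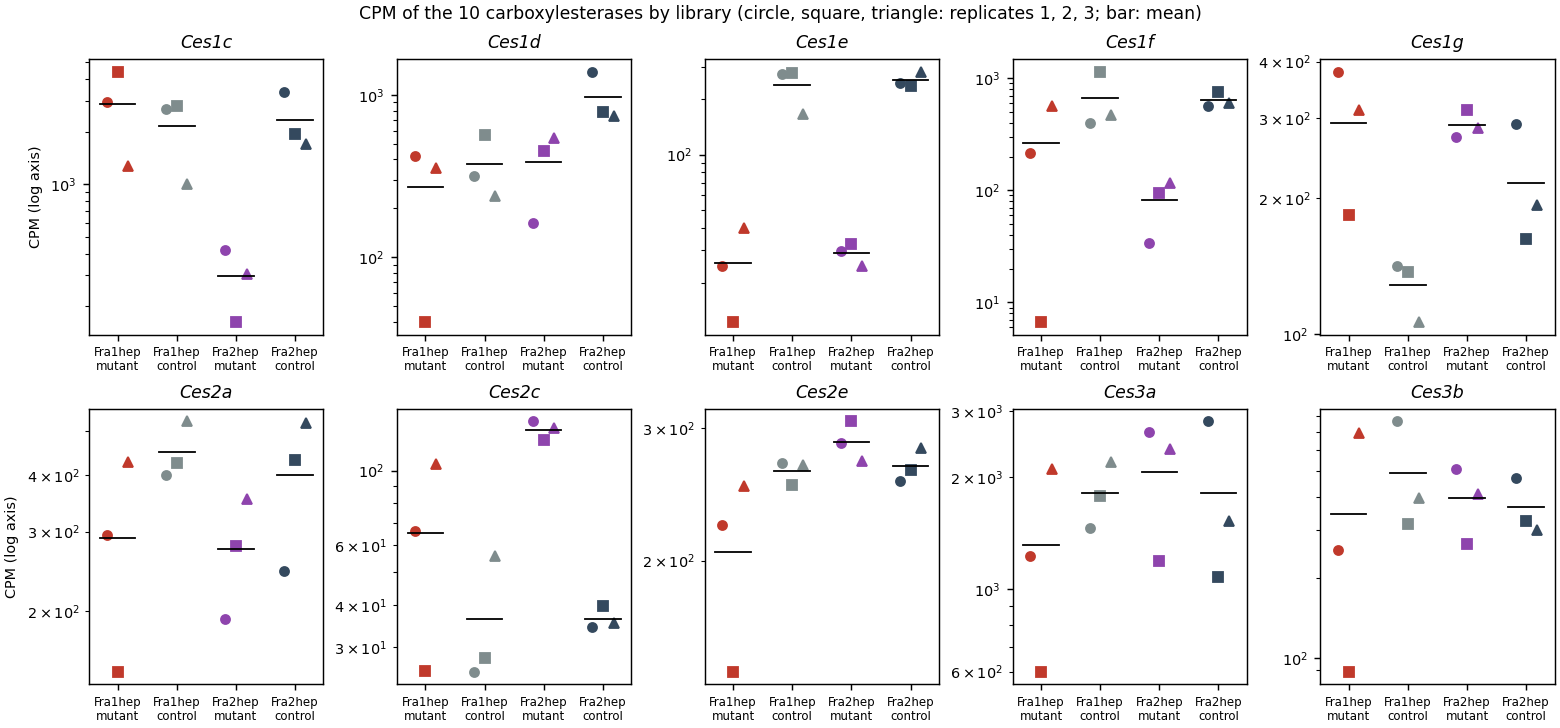
CPM of each of the 10 carboxylesterases (log axis, one scale per panel) in every library, by group; circles, squares and triangles are replicates 1, 2 and 3 and the bar is the group mean. Ces1e is low in all 6 mutant livers, between 12.2 and 40 CPM against 167 to 284 CPM in the 6 controls, and Ces1c is low in the 3 Fra2hep mutants, at 162 to 422 CPM.

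Ces1e fell in the mutants of both strains and by nearly the same amount, Ces1c fell in Fra2hep mutants, and Ces1g rose in Fra1hep mutants. In Fra1hep, 1 of the 10 genes was called lower, against 0.938% of all genes tested, and 1 higher, against 2.9%. In Fra2hep, 2 were called lower, against 0.22%, and 0 higher, against 0.845%. Since these same differences were known when the genes were picked, nothing is read from the counts. The median log2 fold change of the 10 was -0.46 in Fra1hep and -0.215 in Fra2hep, against 0.007 and -0.005 over all genes tested. In bulk liver, fewer cells of a type and less RNA per cell cannot be told apart.

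Ces1e encodes egasyn, which in mouse liver binds beta-glucuronidase and keeps it in the endoplasmic reticulum. Its level was 24.8, 12.2 and 40 CPM in the Fra1hep mutants, against 275, 277 and 167 CPM in the Fra1hep controls. In the Fra2hep mutants it was 29.8, 32.4 and 24.6 CPM, against 247, 238 and 284 CPM in the Fra2hep controls. Every mutant lay below every control in both strains, with a gap of at least 4-fold between the nearest pair of libraries. The log2 fold change was -3.22 ± 0.37 (SE) in Fra1hep, 9.34-fold lower, and -3.15 ± 0.37 in Fra2hep, 8.84-fold lower. Without Fra1hep mutant 2 the Fra1hep value was -2.89. The gene was called in both strains in each of the 12 fits that left out a library. Among all genes tested, 15 (0.107%) were called lower in both strains and 289 (2.05%) were lower without overlap in both. Gusb, which encodes beta-glucuronidase itself, averaged 45 ± 3.07 CPM in Fra1hep mutants and 29.4 ± 3.41 CPM in Fra1hep controls (log2 fold change 0.62 ± 0.23, adjusted p = 0.189), and 43.2 ± 9.71 CPM in Fra2hep mutants and 34.1 ± 12.2 CPM in Fra2hep controls (0.34 ± 0.23, adjusted p = 0.642).

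Ces1c, the secreted plasma esterase, had 422, 162 and 308 CPM in the Fra2hep mutants, against 3380, 1948 and 1707 CPM in the Fra2hep controls. Each Fra2hep mutant was at least 4-fold below the lowest control, and the log2 fold change was -2.98 ± 0.56, or 7.89-fold lower. In the Fra1hep mutants it was 2942, 4410 and 1270 CPM, against 2680, 2789 and 999.9 CPM in the Fra1hep controls, and these groups overlapped (log2 fold change 0.41 ± 0.52, and -0.03 without Fra1hep mutant 2). The Fra2hep call was held in 4 of the 12 fits that left out a library: it was lost on leaving out any 1 of the 6 Fra2hep libraries (log2 fold change -2.62 to -3.32), Fra1hep mutant 1 (-2.98) or Fra1hep control 2 (-2.98). With the 6 hepatocyte markers (Alb, Apoa1, Ttr, Serpina1c, Cyp2e1 and Tat) summed, Fra2hep mutants stood at 60400 to 70600 CPM and Fra2hep controls at 105000 to 128000 CPM, without overlap. Alb took most of that sum, averaging 44400 CPM in Fra2hep mutants and 92000 CPM in Fra2hep controls. EdgeR and limma-voom called none of the 6, and DESeq2 called Alb and Apoa1 lower. With edgeR 4 had an unadjusted p under 0.05, of which Alb, Apoa1 and Ttr were lower and Serpina1c was higher (log2 fold change 0.54). Cyp2e1 and Tat stood at 0.02 and -0.07. The part of these marker differences in the Ces1c result was not tested.

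Ces1d, the triacylglycerol hydrolase that supplies lipid to VLDL, and Ces1f, a close relative with the same kind of activity, did not pass the threshold in either strain. In Fra2hep mutants Ces1d had 163, 449 and 545 CPM, against 1390, 783 and 739 CPM in Fra2hep controls, without overlap (log2 fold change -1.33 ± 0.72). Ces1f had 33.7, 95.4 and 117 CPM in Fra2hep mutants, against 564, 755 and 598 CPM in Fra2hep controls, also without overlap (-2.96 ± 1.07). The Ces1f fold change was close in size to those of Ces1c and Ces1e, with an SE about 2 to 3 times as large. Without Fra1hep mutant 2, whose spread enters the shared fit, Ces1f was called in Fra2hep at the same fold change of -2.96. Ces1d had 420, 39.9 and 355 CPM in Fra1hep mutants, against 317, 562 and 239 CPM in Fra1hep controls (-0.46 ± 0.71, and 0.06 without Fra1hep mutant 2). Ces1f had 215, 6.68 and 568 CPM in Fra1hep mutants, against 396, 1146 and 471 CPM in Fra1hep controls (-1.35 ± 1.01, and -0.78 without Fra1hep mutant 2). Both genes overlapped between the Fra1hep groups, and Ces1f spanned 84.9-fold among the 3 Fra1hep mutants. Ces1d lies in a region where the gene Gm45909 is annotated on the same strand, with no shared exon bases.

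Ces1g, a lipid-handling esterase with the highest chromosome position of the 5 Ces1 members, was the member that rose. Its level was 380, 183 and 313 CPM in the Fra1hep mutants, against 142, 137 and 106 CPM in the Fra1hep controls, without overlap. The log2 fold change was 1.19 ± 0.27, and 1.43 without Fra1hep mutant 2. The call was held in 6 of the 12 fits that left out a library, and was lost without Fra1hep mutant 1 (0.94) or 3 (1.12), Fra1hep control 1 (1.25), 2 (1.24) or 3 (1.05), or Fra2hep mutant 3 (1.19). The call was also lost when only the libraries compared were fitted, and with the replicate number as a block. In Fra2hep mutants it was 273, 312 and 285 CPM, against 292, 162 and 193 CPM in Fra2hep controls (0.43 ± 0.26), where control 1 lay among the mutants. The 3 Fra2hep mutants were thus at the level of the Fra1hep mutants, and the Fra2hep controls stood above the Fra1hep controls.

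Ces2c, an acylcarnitine hydrolase of the Ces2 row, was the gene with the largest positive fold change in Fra2hep and did not pass the threshold. It had 140, 123.4 and 133 CPM in Fra2hep mutants, against 34.3, 39.6 and 35.2 CPM in Fra2hep controls, so that each group was tight and the groups lay well apart. The log2 fold change was 1.86 ± 0.43, or 3.64-fold higher. In Fra1hep mutants it had 66.3, 25.4 and 104 CPM, against 25.3, 27.9 and 55.7 CPM in Fra1hep controls, with overlap (0.85 ± 0.42, and 1.23 without Fra1hep mutant 2). DESeq2 called the Fra2hep difference, and so did 2 of the 12 edgeR fits that left out a library, one of them that without Fra1hep mutant 2. With only the libraries compared fitted, and with the replicate number as a block, 1 member was likewise called higher in Fra2hep. The pseudogene Ces2d-ps, which shares the most sequence with Ces2c, was close to 0 in every group, at 0.105, 0, 0.0367 and 0.0742 CPM on average in Fra1hep mutants, Fra1hep controls, Fra2hep mutants and Fra2hep controls.

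The other Ces2 genes moved little. Ces2a had 294, 147 and 428 CPM in Fra1hep mutants, against 400, 426 and 526 CPM in Fra1hep controls (log2 fold change -0.64 ± 0.38, and -0.32 without Fra1hep mutant 2). In Fra2hep mutants it had 192, 279 and 354 CPM, against 245.5, 433 and 521 CPM in Fra2hep controls (-0.54 ± 0.38). Both comparisons of Ces2a overlapped. Ces2e had 223, 142 and 250.9 CPM in Fra1hep mutants, against 269.6, 252 and 268 CPM in Fra1hep controls, a set that did not overlap by a margin of about 1 CPM (-0.36 ± 0.17, and -0.15 without Fra1hep mutant 2). In Fra2hep mutants it had 286, 306 and 271 CPM, against 255, 264 and 282 CPM in Fra2hep controls (0.11 ± 0.17).

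Ces3a and Ces3b, a nearly identical pair of liver esterases, passed the threshold in neither strain. Ces3a had 1227, 599.8 and 2105 CPM in Fra1hep mutants, against 1459, 1773 and 2196 CPM in Fra1hep controls (log2 fold change -0.47 ± 0.47, and -0.12 without Fra1hep mutant 2). It had 2634, 1186 and 2377 CPM in Fra2hep mutants, against 2823, 1078 and 1523 CPM in Fra2hep controls (0.19 ± 0.47). The livers of each group ranged over 1.51-fold to 3.51-fold for this gene. Ces3b had 254, 89.1 and 689 CPM in Fra1hep mutants, against 766, 317 and 396 CPM in Fra1hep controls (-0.52 ± 0.60, and -0.06 without Fra1hep mutant 2). In Fra2hep mutants Ces3b had 508, 267 and 410 CPM, against 469.7, 325 and 301 CPM in Fra2hep controls (0.11 ± 0.60). All 4 comparisons overlapped.

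**Figure D2:**
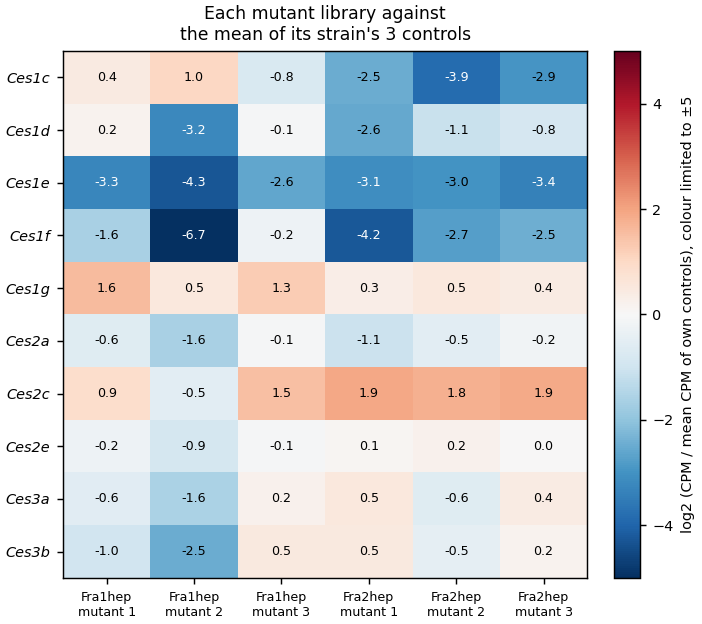
Each mutant library against the mean CPM of the 3 controls of its own strain, as log2 of the ratio (blue lower, red higher; colour limited to 5 either way, number in each cell). The Ces1e row is blue in all 6 mutants, and the column of Fra1hep mutant 2 is blue in every gene but Ces1c and Ces1g.

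Without overlap between groups, 2 of the 10 genes were lower (Ces1e and Ces2e) and 1 higher (Ces1g) in Fra1hep mutants, against 9.98% and 11.7% of all genes tested. In Fra2hep mutants 4 were lower (Ces1c, Ces1d, Ces1e and Ces1f) and 1 higher (Ces2c), against 8.17% and 9.32%. All 4 of the Fra2hep genes that were lower without overlap belong to the Ces1 cluster. As with the calls, these counts rest on the differences by which the genes were picked.

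Summed over its 5 genes, the Ces1 cluster fell in Fra2hep mutants, to 921, 1051 and 1279 CPM, against 5872, 3886 and 3520 CPM in Fra2hep controls. The sum was 4.09-fold lower (log2 fold change -2.03 ± 0.34), and without Fra2hep mutant 1, 2 or 3 the call was lost, at -1.93, -2.01 and -2.17. In Fra1hep mutants the sum was 3982, 4652 and 2545 CPM, against 3810, 4912 and 1984 CPM in Fra1hep controls (0.06 ± 0.33). The Fra1hep groups overlapped, and Ces1c made up most of the sum in both. The Ces2 sum was 584, 315 and 783 CPM in Fra1hep mutants, against 695, 706 and 849.9 CPM in Fra1hep controls, and 618, 709 and 758 CPM in Fra2hep mutants, against 535, 736 and 839 CPM in Fra2hep controls. The Ces3 sum was 1481, 689 and 2794 CPM in Fra1hep mutants, against 2224, 2089 and 2592 CPM in Fra1hep controls, and 3142, 1452 and 2788 CPM in Fra2hep mutants, against 3292, 1403 and 1823 CPM in Fra2hep controls. Neither the Ces2 nor the Ces3 sum passed the threshold in a strain, with log2 fold changes between -0.48 and 0.18.

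Whether the mutant effect differed between strains was asked gene by gene, as the Fra2hep log2 fold change minus the Fra1hep one. This difference is built from the same values as the comparisons above and is not independent of them. With edgeR's quasi-likelihood test 0 of the 10 genes were called, against 0.0355% of all genes tested. At an unadjusted p under 0.05 there was 1 gene, Ces1c, with a difference of -3.39 ± 0.75 and an adjusted p of 0.316. DESeq2 called Ces1c (-3.38, adjusted p = 5e-04), and limma-voom called 0. For Ces1e the difference was 0.08 ± 0.48 (adjusted p = 0.994), which was below 0 without Fra1hep mutant 2 (-0.26). Ces1f (-1.61 ± 1.42, adjusted p = 0.914), Ces2c (1.02 ± 0.59, adjusted p = 0.850) and Ces1g (-0.76 ± 0.37, adjusted p = 0.813) were not separated between strains at this size of design. The Ces1 sum differed by -2.09 ± 0.47 (adjusted p = 0.317), which DESeq2 called at -2.08 (adjusted p = 0.00321). The Ces2 sum differed by 0.40 ± 0.39 and the Ces3 sum by 0.66 ± 0.66 (adjusted p = 0.926 and 0.929).

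The 2 sets of controls were compared as well, Fra2hep minus Fra1hep. With edgeR 0 of the 10 genes were called, as were 0% of all genes tested, 1 gene had an unadjusted p under 0.05, and DESeq2 and limma-voom each called 0 of the 10. Ces1g, the gene with that p, averaged 215 ± 67.7 CPM in Fra2hep controls and 129 ± 19.2 CPM in Fra1hep controls (log2 difference 0.75 ± 0.27, adjusted p = 0.866). Ces1d averaged 971 ± 364 CPM in Fra2hep controls and 373 ± 169 CPM in Fra1hep controls (1.38 ± 0.72, adjusted p = 0.866). These 2 genes were higher in Fra2hep controls without overlap, against 5.28% of all genes tested, and 0 were lower without overlap, against 4.83%. The remaining 8 genes differed by -0.43 to 0.12 between the controls.

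**Figure D3:**
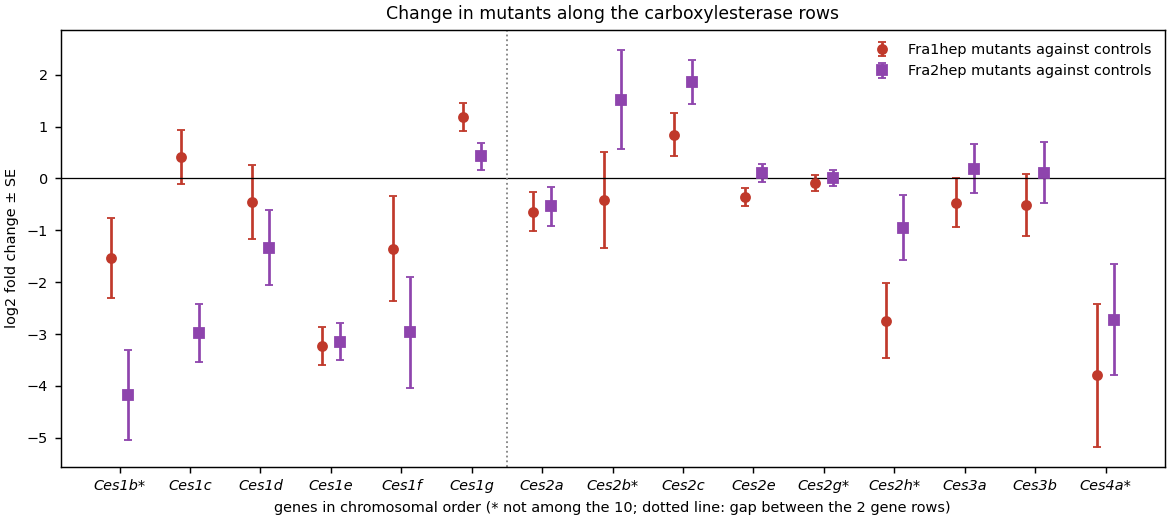
Log2 fold change of mutants against controls (points, with bars of 1 SE) for the 10 carboxylesterases and 5 further ones, marked with an asterisk, in order along chromosome 8; red circles are Fra1hep and purple squares Fra2hep. In Fra2hep the points of the Ces1 row up to Ces1f lie at -1.33 or below and those of the Ces2 and Ces3 genes among the 10 between -0.54 and 1.86.

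To compare genes with each other, counts were divided by the length of the merged exons, giving CPM per kilobase (levels per length). Ces1c ranked first in Fra1hep mutants (1240 ± 676), Fra1hep controls (928 ± 432) and Fra2hep controls (1010 ± 389), with Ces3a next (499 ± 288, 689 ± 141 and 688 ± 345 in the same order, SD, n = 3 each). In these 3 groups the mean ± SD ranges of the first and next gene overlapped. In Fra2hep mutants Ces3a ranked first (786 ± 294), clear of the spread of all others, and Ces1c was in place 4 (128 ± 56). Between them stood Ces1d (163 ± 83.9) and Ces3b (154 ± 47.3), and after Ces1c came Ces1g (121 ± 8.46), Ces2a (117 ± 34.4) and Ces2e (107 ± 6.58). The mean ± SD ranges of neighbours from Ces1d to Ces2e overlapped. The bottom places in Fra2hep mutants were Ces2c (57.6 ± 3.68), Ces1f (24.9 ± 13.1) and Ces1e (13.2 ± 1.81). In Fra1hep mutants Ces1e was also last (11.7 ± 6.35), whereas in both sets of controls it was in place 7 (110 ± 28.8 in Fra1hep, 117 ± 11.1 in Fra2hep). Ces2c was last in both sets of controls (15.8 ± 7.33 in Fra1hep, 15.8 ± 1.24 in Fra2hep), below the spread of Ces1g above it (53.8 ± 8.05 and 90.2 ± 28.4).

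The summed level per length of all 10 genes was 1840, 1270 and 1900 in Fra2hep mutants, against 3920, 2410 and 2480 in Fra2hep controls, without overlap. In Fra1hep mutants it was 2480, 2390 and 2410, against 2730, 3060 and 2130 in Fra1hep controls. Fra1hep mutant 2 was thus not apart in its total. Its make-up was: the Ces1 cluster took 83.7% of its total, against 67.7% and 42.3% in the other Fra1hep mutants. In Fra2hep mutants the Ces1 cluster made up 27.7% ± 6.45, against 62.0% ± 3.64 in Fra2hep controls, and the Ces3 cluster made up 55.0% ± 10.9, against 27.5% ± 4.93. The Ces2 share was 17.4% ± 4.55 in Fra2hep mutants and 10.5% ± 4.46 in Fra2hep controls. In Fra1hep the Ces1 share was 64.6% ± 20.9 in mutants and 53.4% ± 14.3 in controls, within the spread between livers. A share rises when other genes fall, and the Ces3 level per length itself was 940 ± 340 in Fra2hep mutants and 831 ± 378 in Fra2hep controls.

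**Figure D4:**
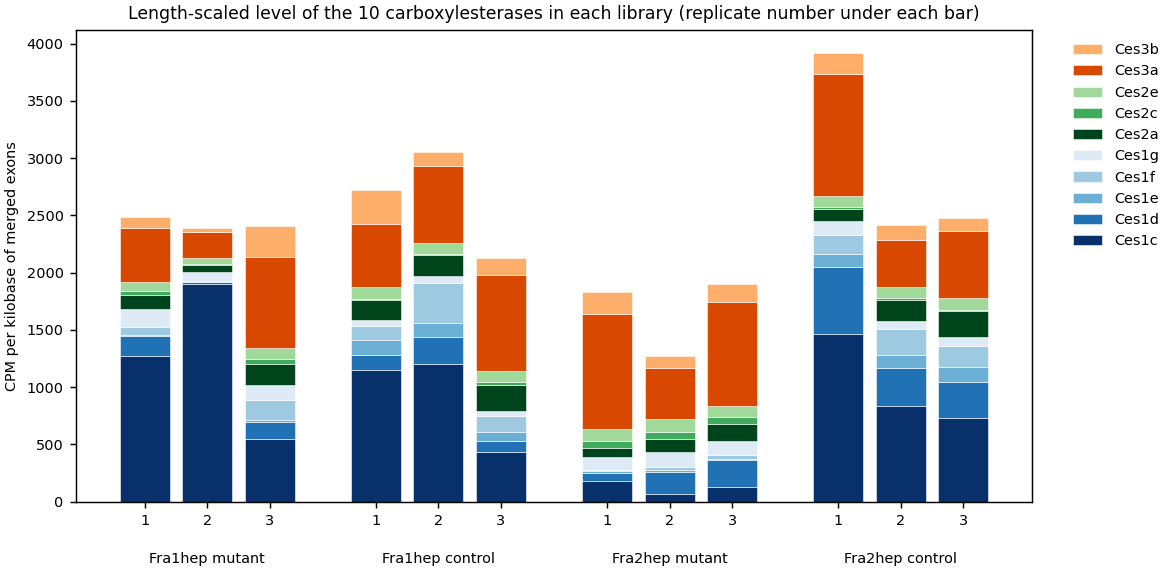
Level per length (CPM per kilobase of merged exons) of the 10 carboxylesterases stacked for each library, blue for Ces1, green for Ces2 and orange for Ces3 genes; replicate numbers stand under the bars. The 3 Fra2hep mutant bars, 1270 to 1900, are below the 3 Fra2hep control bars, 2410 to 3920, mainly through the blue part.

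Of 10 further carboxylesterase rows, 5 passed the filter and none of these was called by edgeR in either strain, with 2 at an unadjusted p under 0.05 in Fra1hep and 2 in Fra2hep. DESeq2 called Ces2h and Ces4a in Fra1hep and Ces1b in Fra2hep, and limma-voom called Ces2h in Fra1hep. Ces1b, the neighbour of Ces1c with which it shares the most sequence, had 14.3, 1.25 and 4.36 CPM in Fra2hep mutants, against 256, 39 and 64.8 CPM in Fra2hep controls. These groups did not overlap, with control 1 far above the other controls (log2 fold change -4.18 ± 0.87, adjusted p = 0.0522 with edgeR and 0.000191 with DESeq2). Its Fra1hep values were 22.7, 19.1 and 15.5 CPM in mutants, against 76.9, 50.6 and 38.3 CPM in controls (-1.53 ± 0.77, adjusted p = 0.360). Ces2h had 0.0547, 0.0526 and 0.406 CPM in Fra1hep mutants, against 1.7, 1.08 and 0.86 CPM in Fra1hep controls (-2.74 ± 0.73, adjusted p = 0.0657). Ces4a had -3.80 ± 1.38 in Fra1hep (adjusted p = 0.187) and -2.72 ± 1.08 in Fra2hep (adjusted p = 0.354), on at most 52 counts a library apart from Fra2hep control 1 with 395. Ces2g, at 63.7 to 70.6 CPM on average in the 4 groups, had log2 fold changes of -0.08 ± 0.16 and 0.00 ± 0.16. Ces2b, at 0.844 to 2.44 CPM on average, had -0.42 ± 0.92 and 1.52 ± 0.95.

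Genes around the same pathways were followed in lists, and edgeR and limma-voom called none of their genes in either strain. The lists were chosen with earlier results of these data known. Counts at an unadjusted p under 0.05, here and above, stand without the share of all genes tested, so nothing is read from them. Of 15 neutral lipid hydrolases and cofactors that passed the filter, 10 had negative fold changes in Fra1hep and 6 in Fra2hep, with medians of -0.52 and 0.10, and 9 and 1 had an unadjusted p under 0.05. Lipe, hormone-sensitive lipase, had the smallest adjusted p of the list (0.63 ± 0.17 in Fra1hep, adjusted p = 0.0630), before Pnpla3, a lipid-droplet protein (-1.94 ± 0.52, adjusted p = 0.0674), and Mgll, monoacylglycerol lipase (-0.77 ± 0.23, adjusted p = 0.0953). DESeq2 called these 3 in Fra1hep, and also Lipc, hepatic lipase, as lower and Lipa, the lysosomal acid lipase, as higher. Aadac, another triacylglycerol-hydrolysing enzyme of the endoplasmic reticulum, had log2 fold changes of 0.08 ± 0.12 in Fra1hep and 0.10 ± 0.12 in Fra2hep (adjusted p = 0.814 and 0.831).

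Among 10 genes of VLDL assembly, all of which passed the filter, the medians were -0.07 in Fra1hep and 0.21 in Fra2hep, with 4 and 2 at an unadjusted p under 0.05. P4hb, the small subunit of the lipid transfer complex and a protein disulfide isomerase, averaged 2850 CPM in Fra2hep mutants and 1380 CPM in Fra2hep controls (1.05 ± 0.24, adjusted p = 0.0653). Apob, the structural protein of VLDL, averaged 7040 CPM in Fra2hep mutants and 3830 CPM in Fra2hep controls (0.88 ± 0.23, adjusted p = 0.115), and 5650 CPM in Fra1hep mutants and 3440 CPM in Fra1hep controls (0.71 ± 0.23, adjusted p = 0.119). DESeq2 called Apob higher in both strains and P4hb in Fra2hep. Mttp, the transfer protein itself, had -0.17 ± 0.16 in Fra1hep and 0.24 ± 0.16 in Fra2hep (adjusted p = 0.659 and 0.629).

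Of 11 other ester-hydrolysing enzymes, all tested, 3 had an unadjusted p under 0.05 in Fra1hep and 0 in Fra2hep, with medians of -0.04 and 0.03. Pon1, a plasma paraoxonase made in liver, averaged 652 CPM in Fra1hep mutants and 1010 CPM in Fra1hep controls (-0.63 ± 0.21, adjusted p = 0.144) and was called by DESeq2. Of 12 transcription regulators of liver esterases, all tested, 1 had an unadjusted p under 0.05 in Fra1hep and 2 in Fra2hep, and neither DESeq2 nor limma-voom called any. Their medians were -0.21 and -0.08. Nr1i3, the constitutive androstane receptor, had -0.95 ± 0.65 in Fra1hep and -0.94 ± 0.65 in Fra2hep (adjusted p = 0.515 and 0.656), and Hnf4a, a hepatocyte identity factor, had 0.43 ± 0.16 and 0.24 ± 0.16 (adjusted p = 0.211 and 0.651).

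Markers of other cells of the liver were followed beside the carboxylesterases. Of all marker lists, edgeR and limma-voom called 1 gene, Dcn, a fibroblast and stellate cell proteoglycan, which rose in Fra1hep mutants (206 CPM, against 114 CPM in Fra1hep controls, 0.86 on the log2 scale, adjusted p = 0.00239). DESeq2 also called Dcn there. It further called Dcn higher in Fra2hep controls (177 CPM) than in Fra1hep controls (114 CPM, 0.64 on the log2 scale, adjusted p = 0.00175, and 0.546 with edgeR), lower for the difference between strains (-1.08, adjusted p = 2.81e-06, and 0.0638 with edgeR), and the enterocyte marker Fabp2 lower in Fra1hep mutants (38.5 CPM, against 91.4 CPM in Fra1hep controls, -1.26, adjusted p = 0.0068). The 5 stellate and fibroblast markers summed to 296 to 385 CPM in Fra1hep mutants, against 172 to 241 CPM in Fra1hep controls, and to 182 to 302 CPM in Fra2hep mutants, against 234 to 321 CPM in Fra2hep controls. The hepatocyte markers overlapped between Fra1hep mutants (52500 to 102000 CPM) and Fra1hep controls (85700 to 123000 CPM). Cholangiocyte markers stood at 28.7 to 321 CPM in Fra1hep mutants, against 74.8 to 104 CPM in Fra1hep controls. They stood at 74.2 to 201 CPM in Fra2hep mutants, against 37.1 to 199 CPM in Fra2hep controls. Most of these sums was Spp1, averaging 156, 75.1, 116 and 94.8 CPM in the groups in that order. Kupffer cell markers (154 to 180 CPM in Fra1hep mutants, 143 to 236 CPM in Fra1hep controls, 177 to 278 CPM in Fra2hep mutants and 111 to 275 CPM in Fra2hep controls) and endothelial markers (114 to 127, 101 to 130, 87.7 to 130 and 107 to 160 CPM in the same groups) overlapped in both strains. Adipocyte markers summed to at most 1.16 CPM in any library, with Lep at 0 in all 12, and the enterocyte markers Sis and Cdx1 were at 0 in all 12. Fabp2 stood at 37.4 to 134 CPM in these same libraries, so its call is not read as a change in enterocytes. Cela1 was the 1 acinar marker of 4 to pass the filter, and the acinar list summed to 12.5 to 33.6 CPM over all libraries. The 6 lymphocyte markers summed to 4.32 to 10.7 CPM in Fra1hep mutants, 3.71 to 5.55 CPM in Fra1hep controls, 3.32 to 5.78 CPM in Fra2hep mutants and 5.23 to 6.51 CPM in Fra2hep controls. The enterocyte list, led by Apoa4, which liver also expresses, summed to 1560 to 6070 CPM in Fra1hep mutants, 435 to 739 CPM in Fra1hep controls, 2610 to 11400 CPM in Fra2hep mutants and 47.9 to 2090 CPM in Fra2hep controls. The part of these markers in the carboxylesterase differences was not tested.

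The genes most like each cluster sum across the 12 libraries were taken from 11737 protein-coding genes by Pearson's r of log2 CPM, as a description. The libraries share the 4 groups and their depth, so r is also given for deviations from the group means. For the Ces1 sum they were Chrac1 (r = 0.883, within groups 0.709), Anxa4 (0.873, 0.500), Prss8 (0.863, 0.775), Emp2 (0.862, 0.693) and Tk1 (0.862, 0.795). For the Ces2 sum they were Ddo (0.948, 0.971), Acot11 (0.943, 0.933), Adipor2 (0.935, 0.936) and Mcur1 (0.931, 0.923). For the Ces3 sum they were Jmjd8 (0.920, 0.909), Cyp7b1 (0.903, 0.935), Ugt2b5 (0.901, 0.904), Selenbp2 (0.900, 0.953) and Syt11 (0.887, 0.878). For the Ces2 and Ces3 sums the likeness was thus about as close between livers of one group as over all livers, and for the Ces1 sum it was lower within groups.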

How the data were processed

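Polyadenylated RNA of 12 livers was made into stranded libraries with dUTP marking and 8 cycles of PCR, and RNA integrity numbers were 9 to 10, per the labels' protocols. Raw read counts per gene, in whole numbers and without normalization, are what the authors deposited. The submitters' processing notes name the build GRCm38 and the tools bedtools 2.27.1, DESeq2 1.22.2, RSEM and STAR 2.6.1a. The counting tool, its annotation, its strand setting and its handling of multiply matching reads: not given in the sources used here. Without molecular identifiers, PCR copies count as molecules. No batch is given in the labels.

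Groups came from the titles. Littermates are separate animals, and no pair within a group agreed within sampling noise (chi-square per degree of freedom 28.3 to 121). Counts were scaled by TMM, filtered by edgeR's filterByExpr and tested with edgeR 4.0.16 (robust quasi-likelihood fit, 4 group means, 12 libraries, R 4.3.3), with Benjamini-Hochberg adjustment over 14076 genes and a threshold of 0.05. SE is the fold change divided by the square root of F. Cluster sums replaced their members in the same table. Alternatives were DESeq2 1.42.0, limma-voom (limma 3.58.1), other scalings and filters, fits of the compared libraries alone, the replicate number as a block, and leaving out each library. The edgeR code was tested on simulated data. Exon lengths and coding sequences came from the GENCODE annotation of GRCm38, promoters from RefSeq. A prior count of 2 was used for log2 CPM in the likeness, which took genes averaging at least 1 CPM.

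The members and gene lists were chosen with earlier results of these data known. All members were named, as were other carboxylesterases that passed the filter, the genes of each list with the smallest adjusted p, and the 5 genes most like each sum, of which 1 is not reported here. A few further list genes were named for their roles.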

Additional observations from a re-analysis of the deposited data

How the results depend on the processing

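All results were recomputed with other scalings, filters, tools, sample sets and a replicate block, and without each library. Without a scaling factor the median of all genes moved to 0.147 in Fra1hep, 0.045 in Fra2hep and -0.104 for the difference. Ces1e was called lower in both strains under every one of these settings. Members called higher in Fra1hep numbered 0 when only the libraries compared were fitted and under the replicate block, and 0 to 1 without 1 library. Members called higher in Fra2hep numbered 1 with DESeq2 and when only the libraries compared were fitted, and 0 to 1 without 1 library. Members called lower in Fra2hep numbered 1 with no filter and 1 to 3 without 1 library. DESeq2 called 1 member lower for the difference between strains, and the Ces1 sum there at -2.08 (adjusted p = 0.00321). As a description only, the Ces1 sum in Fra2hep ran from -2.17 to -1.77 without 1 library. It was not called without Fra2hep mutant 1, 2 or 3. The cause of these changes was not tested.

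Same-numbered samples did not deviate together (r of -0.071, 0.047 and 0.053 in Fra1hep, 0.056, 0.032 and -0.121 in Fra2hep), so no pairing by replicate number was seen. With 3 libraries a group, these values cannot exclude that same-numbered mice shared a litter or cage. With the replicate block, 0 members were called higher in Fra1hep, 1 higher in Fra2hep and 1 lower for the difference. List genes, here and below, include the further carboxylesterases and leave out the cell markers. Those called under the block numbered 3 lower in Fra1hep and 1 lower in Fra2hep. The controls could not be compared with the block.

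List genes called lower in Fra1hep numbered 6 with DESeq2, 1 with limma-voom (Ces2h) and 1 with no filter. They numbered 3 with only the libraries compared and 0 to 2 without 1 library. Those called higher there numbered 3 with DESeq2, 1 without a scaling factor, 1 with only the libraries compared and 0 to 1 without 1 library. In Fra2hep, 1 was called lower with DESeq2, without a scaling factor and with at least 1 CPM in 3 libraries, and 0 to 1 without 1 library. There 2 were called higher with DESeq2, 1 with no filter and 0 to 1 without 1 library. Over all genes tested, 343 were lower in Fra1hep with DESeq2, 131 with limma-voom, 102 with no filter and 90 with only the libraries compared. Those higher there numbered 678 with DESeq2, 673 without a scaling factor and 330 with only the libraries compared. Nothing is read from the counts of list genes.

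None of the values that passed the threshold turned sign. Ces2g was 0.000 in Fra2hep with other scaling factors or DESeq2, -0.004 with only the libraries compared, and 0.060 in Fra1hep without a scaling factor. The Ces1e difference was -0.022 and the Ces2c control comparison -0.015 without a scaling factor, the Ces1f control comparison 0.095 with limma-voom, and that of Ces3a 0.000 with no filter and 0.003 with at least 1 CPM in 3 libraries. Without 1 library, the ranges that crossed 0 for the controls, Fra2hep minus Fra1hep, were -0.238 to 0.351 for Ces1c, -0.105 to 0.213 for Ces1e, -0.333 to 0.558 for Ces1f, -0.411 to 0.082 for Ces2a, -0.194 to 0.455 for Ces2c, -0.022 to 0.052 for Ces2e, -0.477 to 0.264 for Ces3a, -0.669 to 0.041 for Ces3b, -0.240 to 0.070 for the Ces2 sum and -0.513 to 0.152 for the Ces3 sum. For the difference they were -0.258 to 0.561 for Ces1e and -0.220 to 0.499 for Ces2a. They were -2.899 to 0.486 for Ces2b and -0.222 to 0.104 for Ces2g in Fra1hep, and -0.044 to 0.082 for Ces2g in Fra2hep. Of the members and sums in mutants against controls, those that crossed 0 were Ces1c (-0.034 to 0.750), Ces1d (-0.921 to 0.057) and the Ces1 sum (-0.244 to 0.364) in Fra1hep, and Ces3a (-0.074 to 0.667), Ces3b (-0.110 to 0.336), the Ces2 sum (-0.181 to 0.129) and the Ces3 sum (-0.057 to 0.608) in Fra2hep. The Ces2 sum in Fra2hep also crossed 0 over the other settings (-0.025 to 0.040).

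Over all genes, DESeq2 called 678 higher and 343 lower in Fra1hep and 315 and 133 in Fra2hep, against edgeR's 408 and 132 and 119 and 31. For the difference DESeq2 called 22 higher and 47 lower against 1 and 4, and for the controls 17 and 1 against 0 and 0. The block gave 83 lower in Fra1hep, and 78 higher and 20 lower in Fra2hep. With only the libraries compared Fra2hep gave 71 higher and 19 lower.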
